A study of Mus musculus with 7 samples.

Results

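The macrophage state genes are 39 mouse genes chosen by name and not by a threshold on a measured value, although earlier results of these data were known when they were chosen. Each was found by its symbol among the 57010 gene identifiers of an RNA-Seq count table of white adipocytes. They comprise 16 pan-myeloid genes, 4 genes of resident macrophages, 5 genes of lipid-associated macrophages and 3 genes of monocyte-like cells. The remaining members, which the choice put in no state, are described here as 6 genes often found with the resident state and 5 genes of activation. Of the 39 genes, 38 passed the filter on low counts and were tested among 17039 genes. Chil3 did not pass.

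The libraries were made from mature white adipocytes that collagenase had freed from the perigonadal fat of male mice killed at 20 weeks of age. There were 3 libraries from FFA2 fl/fl mice, the floxed littermate controls, and 4 from Adipoq-F2-KO mice, where a Cre recombinase under the adiponectin promoter removes FFA2, a receptor for short-chain fatty acids. Both genotypes carry the floxed alleles, were housed together from birth, ate normal chow and received no treatment. The study's methods state the shared housing only up to an age below 20 weeks. The adiponectin promoter acts in adipocytes, so the deletion is directed at the adipocytes and not at the macrophages whose transcripts are described here. The labels do not say whether a library is 1 mouse or a pool, and p-values measure the spread between these libraries. The question was which macrophage state, if any, rises when FFA2 is removed from adipocytes.

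Macrophages are the most numerous immune cells of fat, and they lie between the adipocytes and around their blood vessels. Resident macrophages carry scavenger and uptake receptors such as LYVE1 and CD163, and they clear dying cells and debris. Lipid-associated macrophages gather around dying adipocytes, take up lipid and degrade it in lysosomes, whereas monocyte-like cells have recently arrived from the blood and carry Ly6C.

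Total counts lay between 30478997 and 39992605 per library. A count of 0 in a library allows up to 0.150 to 0.197 CPM, for 3 fragments counted at both mates. Ffar2, the targeted gene, had 32.0 to 37.5 normalized CPM in the FFA2 fl/fl libraries against 1.15 to 2.58 in Adipoq-F2-KO. The mitochondrial share of counts was 4.41% to 10.3%, and the Adipoq-F2-KO shares all lay above the control shares. The part of RNA quality in the results below was not tested. Adipocyte genes dominated all libraries. The summed level of 10 adipocyte markers was 33083.5 to 48263 normalized CPM, against 226 to 446 for the 16 pan-myeloid genes.

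The promoters of 5 genes are shown. They are those of Lyz2, Cd68 and Cybb, which were called higher in Adipoq-F2-KO below, and of Mrc1 and Cd163, which were not called. Mpeg1 and Ctss, which lay nearer to the threshold than Mrc1, are not shown. Each is the 250 bases before the first annotated start, 5′ to 3′ on the strand of the gene, from the RefSeq table for GRCm38.p6. Capitals mark GAGGAA, or TTCCTC on the other strand, the core letters of the sites bound by PU.1, the product of Spi1.
Lyz2, chr10:117282273-117282522, minus strand: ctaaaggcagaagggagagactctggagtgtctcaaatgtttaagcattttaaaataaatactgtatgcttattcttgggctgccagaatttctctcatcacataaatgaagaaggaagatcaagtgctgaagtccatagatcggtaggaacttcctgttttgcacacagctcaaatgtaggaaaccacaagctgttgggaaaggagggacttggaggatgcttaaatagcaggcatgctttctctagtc
Cd68, chr11:69666171-69666420, minus strand: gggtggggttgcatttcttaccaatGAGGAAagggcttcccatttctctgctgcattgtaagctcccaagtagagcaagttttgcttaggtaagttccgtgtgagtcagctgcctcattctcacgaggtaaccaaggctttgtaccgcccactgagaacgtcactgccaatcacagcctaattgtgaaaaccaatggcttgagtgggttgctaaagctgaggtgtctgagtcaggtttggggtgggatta
Cybb, chrX:9469325-9469574, minus strand: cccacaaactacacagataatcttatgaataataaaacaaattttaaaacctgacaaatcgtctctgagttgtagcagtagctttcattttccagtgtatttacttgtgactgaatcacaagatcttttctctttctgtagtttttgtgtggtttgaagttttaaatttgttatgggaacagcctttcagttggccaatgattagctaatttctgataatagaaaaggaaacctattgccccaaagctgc
Mrc1, chr2:14229164-14229413, plus strand: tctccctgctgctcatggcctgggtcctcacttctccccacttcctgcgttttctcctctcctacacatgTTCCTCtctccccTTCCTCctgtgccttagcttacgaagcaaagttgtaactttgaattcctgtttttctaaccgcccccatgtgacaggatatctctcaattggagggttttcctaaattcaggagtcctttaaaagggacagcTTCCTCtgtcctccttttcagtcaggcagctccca
Cd163, chr6:124304401-124304650, plus strand: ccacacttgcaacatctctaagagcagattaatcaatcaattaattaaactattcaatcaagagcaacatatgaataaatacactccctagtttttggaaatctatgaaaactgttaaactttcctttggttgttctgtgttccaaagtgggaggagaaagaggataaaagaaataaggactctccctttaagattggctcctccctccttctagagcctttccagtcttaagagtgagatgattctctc
Of 29 members with a promoter in that table, 13 held the letters GAGGAA on either strand, or 44.8%, against 23.1% of all 27025 genes. The Mrc1 promoter held them at 3 places and the Cd68 promoter at 1, and the promoters of Lyz2, Cybb and Cd163 held none. The letters stood in 6 of 12 pan-myeloid promoters, 3 of 5 resident-associated, 2 of 4 lipid-associated, 2 of 3 monocyte-like, 0 of 3 resident and 0 of 2 activation promoters. A match is only a description of letters and not a bound site. No promoter entry was found for Adgre1, Arg1, Lst1, Cd52, Spi1, Atp6v0d2, Siglec1, Cd86, Maf and Lyve1.

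The pan-myeloid genes, which all macrophages and many other myeloid cells express, were the state genes with transcripts called higher in Adipoq-F2-KO adipocyte libraries. Lyz2, Cd68 and Cybb rose, by 0.69 to 0.90 on the log2 scale, and these 3 were the only members of the 38 tested that passed an adjusted p under 0.05 in edgeR's quasi-likelihood test. Of the 22 tested genes of the other states 0 passed, although 10 were higher and 1 was lower at an unadjusted p under 0.05 and some were called in other fits. DESeq2 called 2 of them higher, Mrc1 and F13a1, the replicate block called Gpnmb, and edgeR without a filter on low counts called Mrc1, F13a1, Gpnmb and Cd86 higher and Mertk lower. Among all tested genes, 0.798% were called higher and 0.217% lower. All 16 pan-myeloid genes had a fold change above 0, with a median log2 fold change of 0.67 against 0.00 over all tested genes, of which 50.4% lay above 0. In bulk RNA, a different number of macrophages and a different amount of RNA per macrophage cannot be told apart.

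Lyz2 encodes the lysozyme of macrophages and neutrophils, and it lies on chromosome 10 from 117113236 to 117118226 in the coordinates of the deposited table. FFA2 fl/fl libraries 1 to 3 had 75.2, 107 and 90.5 normalized CPM of it, against 131, 145, 147 and 165 in libraries 1 to 4 of Adipoq-F2-KO. The genotypes did not overlap, and Lyz2 rose from 90.8 ± 15.7 (SD, n = 3) to 147 ± 13.7 (SD, n = 4). The log2 fold change was 0.69 (standard error, SE, 0.12), with an adjusted p of 0.0382. Lyz1, a near-identical neighbour with which Lyz2 can share reads, had 6.06 to 10.3 CPM in the controls and 11.3 to 15.1 in Adipoq-F2-KO.

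Cd68 encodes a glycoprotein of macrophage lysosomes and lies on chromosome 11 from 69555039 to 69556979. It had 25.6, 33.8 and 22.5 normalized CPM in the control libraries against 43.7, 43.9, 41.9 and 50.2 in Adipoq-F2-KO. The lowest knockout library was above the highest control, and the log2 fold change was 0.72 ± 0.14 (SE, adjusted p = 0.0416).

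Cybb encodes the catalytic subunit of the phagocyte NADPH oxidase and lies on chromosome X from 9301491 to 9354010. Control libraries held 10.1, 10.7 and 9.26 normalized CPM, and Adipoq-F2-KO libraries held 13.9, 21.1, 18.5 and 21.6. With no overlap, Cybb had the largest fold change of the 3 called genes, 0.90 on the log2 scale (SE 0.16, adjusted p = 0.0382).

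Adgre1, which encodes F4/80, the classical surface marker of mouse macrophages, had 10.1, 12.9 and 11.3 normalized CPM in the controls. The Adipoq-F2-KO libraries had 16.7, 15.9, 17.4 and 25.98, all above the controls and with library 4 apart from the other 3. Its log2 fold change of 0.73 (SE 0.18) did not pass in edgeR (adjusted p = 0.0792) and passed in DESeq2 (adjusted p = 0.0118).

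Mpeg1, which encodes the pore-forming perforin-2, and Ctss, which encodes the lysosomal protease cathepsin S, lay just short of the threshold. For Mpeg1 the controls had 20.2, 31.8 and 19.7 normalized CPM and the knockouts 41.0, 44.3, 40.0 and 37.4, with log2 fold change 0.77 and adjusted p = 0.0521. Ctss had 35.2, 35.7 and 21.2 against 46.3, 50.7, 56.4 and 48.3, with log2 fold change 0.71 and adjusted p = 0.0654. Neither gene overlapped between the genotypes. Spi1, which encodes the myeloid master regulator PU.1, had 5.50, 7.96 and 8.41 against 11.6, 11.5, 12.2 and 10.1, again without overlap, and a log2 fold change of 0.64 (adjusted p = 0.0987).

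For 8 of the 16 pan-myeloid genes every Adipoq-F2-KO library lay above every control, as it did for 8.86% of all tested genes. The eighth was Aif1, the gene of the macrophage protein IBA1, at 0.961 to 1.97 normalized CPM in the controls and 2.16 to 3.52 in Adipoq-F2-KO (log2 fold change 0.86, adjusted p = 0.238). Among the 8 genes that overlapped, 5 were set apart here as genes that lymphocytes also express. That choice is not exhaustive, and other pan-myeloid genes may be shared with lymphocytes too. Coro1a, which encodes an actin regulator of leukocytes, had 3.10, 12.6 and 3.40 normalized CPM in the controls and 7.33 to 11.1 in Adipoq-F2-KO, so control library 2 was its highest library. Ptprc, the pan-leukocyte gene CD45, had 5.39, 14.7 and 8.03 against 9.03 to 15.9. Control library 2 was also the highest control for Cd53, Cd52 and Laptm5, whose log2 fold changes were 0.74, 0.63 and 0.40. This was not particular to these genes. Control library 2 was the highest control for Lyz2, Cd68, Cybb, Adgre1, Aif1, Ctss, Mpeg1 and Ly86 too, but not for Spi1, Ms4a7 and Lst1. In that library 8 T cell markers summed to 12.0 CPM, the highest of the 7 libraries, and 6 B cell markers to 78.5, the highest but for Adipoq-F2-KO library 4 at 84.7. The part of T and B cells in the pan-myeloid genes was not tested. Ly86, Ms4a7 and Lst1 had log2 fold changes of 0.34, 0.55 and 0.64 with adjusted p-values of 0.458 to 0.772, and Lst1 was at 0 counts in Adipoq-F2-KO library 2.

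With 1 library left out, the number of members called higher was 0 without FFA2 fl/fl library 1 or 3 or without Adipoq-F2-KO library 2 or 3, 2 without Adipoq-F2-KO library 1 or 4, and 3 without FFA2 fl/fl library 2. DESeq2 called 9 members higher and 0 lower (3.83% and 1.13% of all its tested genes), edgeR without a filter on low counts called 11 higher and 1 lower (3.76% and 1.16%), limma voom called 4 higher (0.974%) and a fit with the replicate number as a block called 5 higher (1.12%).

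**Figure D1:**
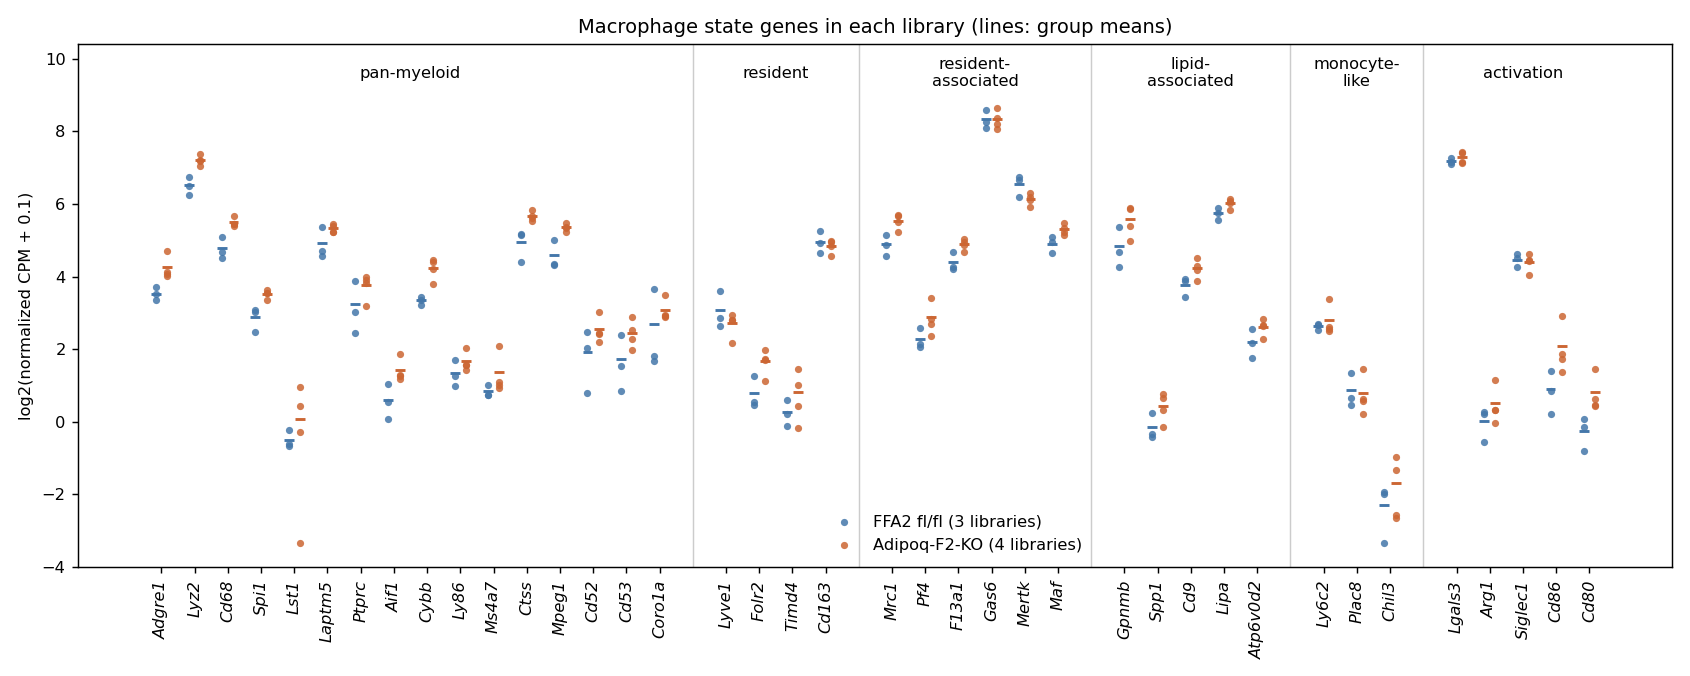
Normalized CPM of the 39 macrophage state genes on a log2 axis (log2 of CPM plus 0.1), 1 point per library and a line at each group mean, with the 3 FFA2 fl/fl libraries in blue and the 4 Adipoq-F2-KO libraries in orange. The group means of the 16 pan-myeloid genes lie higher in orange, and for 8 of these genes every orange point lies above every blue point. Gas6, Lgals3, Cd163 and Siglec1 lie at like levels in both colours.

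The 4 resident genes did not move together, and none passed the test. Their median log2 fold change was 0.23, with 2 above and 2 below 0. Lyve1, which encodes a hyaluronan receptor of resident macrophages and of lymphatic vessels, had 6.09, 7.11 and 12.0 normalized CPM in the controls and 7.53, 4.37, 6.91 and 6.92 in Adipoq-F2-KO. The groups overlapped, and the log2 fold change of -0.38 ± 0.26 (SE, adjusted p = 0.471) was within the spread. Cd163, the scavenger receptor for haptoglobin-bound haemoglobin, was the most abundant of the 4 and had 30.01, 24.9 and 37.8 normalized CPM against 31.2, 23.4, 28.3 and 31.0. Its groups overlapped, with 1 knockout library below every control, and its log2 fold change was -0.12 (95% interval -0.45 to 0.22). The upper bounds of the intervals, 0.19 for Lyve1 and 0.22 for Cd163, lay below the log2 fold changes of Lyz2, Cd68 and Cybb.

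Folr2, which encodes folate receptor beta, went the other way from Lyve1 and Cd163. It had 1.28, 2.29 and 1.35 normalized CPM in the controls and 3.21, 3.83, 3.15 and 2.07 in Adipoq-F2-KO. Only Adipoq-F2-KO library 4 lay among the controls, and the log2 fold change of 0.90 (SE 0.33) did not pass (adjusted p = 0.194). Timd4, which encodes the phosphatidylserine receptor TIM-4, lay between 0.790 and 2.65 CPM in all libraries, with overlap and a log2 fold change of 0.58 (adjusted p = 0.551).

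Among the 6 resident-associated genes, 4 had positive and 2 negative fold changes, with a median of 0.45 on the log2 scale and none called. Mrc1, which encodes the mannose receptor CD206, was nearest to the threshold. Its normalized CPM were 23.5, 29.3 and 35.3 in the controls and 51.0, 45.0, 37.6 and 51.7 in Adipoq-F2-KO, without overlap (log2 fold change 0.66, SE 0.15, adjusted p = 0.0662). F13a1, the A subunit of coagulation factor XIII, and Maf, a transcription factor of resident macrophages, did not overlap either. F13a1 had 18.2 to 25.28 against 25.30 to 32.9 CPM, with library values that almost touched, and a log2 fold change of 0.50 (adjusted p = 0.108). Maf had 25.0 to 33.9 against 34.9 to 44.1 (0.39, adjusted p = 0.149). Pf4, which encodes a chemokine that platelets also carry, had 4.09 to 5.86 against 5.09 to 10.45 (0.61, adjusted p = 0.249).

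Mertk and Gas6 form a receptor and ligand pair for the uptake of dying cells, and neither followed the pan-myeloid genes. Mertk had 106, 72.4 and 101 normalized CPM in the controls and 78.0, 72.7, 60.4 and 68.3 in Adipoq-F2-KO. It was the only member below an unadjusted p of 0.05 in the lower direction (log2 fold change -0.42, SE 0.14, adjusted p = 0.152), and control library 2 lay among the knockouts. Gas6 had 273, 305 and 384 against 328, 395, 265 and 293, with overlapping groups and a 95% interval of the log2 fold change from -0.33 to 0.32. Per kilobase of exon, Gas6 was the most abundant member at 126 CPM, above Lyz2 at 93.3, Lgals3 at 81.2, Ctss at 30.9 and Cd68 at 29.7, and Mertk stood at 18.4. Gas6 and Lgals3 are made by many cell types. For these and all other members, Mertk, Cd9 and Lipa among them, which cells the reads came from cannot be told from bulk RNA.

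All 5 lipid-associated genes had fold changes above 0, with a median of 0.47 on the log2 scale, and none passed the test with the genotype alone. Gpnmb, which encodes a glycoprotein of lipid-laden macrophages, had 25.7, 41.4 and 19.2 normalized CPM in the controls and 58.1, 59.4, 41.8 and 31.3 in Adipoq-F2-KO. Only library 4 lay among the controls, and the log2 fold change was 0.73 ± 0.27 (SE, adjusted p = 0.188). The call for Gpnmb depended on the fit, since it passed with the replicate number as a block (log2 fold change 0.94, adjusted p = 0.0206) and in edgeR without a filter on low counts (adjusted p = 0.000118), but not in DESeq2 (0.277) or limma voom (0.173). Cd9, a tetraspanin, and Lipa, the lysosomal acid lipase, overlapped by 1 library. Cd9 had 10.7 to 15.2 CPM against 14.6 to 22.9 (0.47, adjusted p = 0.192), and Lipa had 47.2 to 58.5 against 56.4 to 69.7 (0.28, adjusted p = 0.206). Spp1, which encodes osteopontin, was low at 0.644 to 1.604 CPM in all libraries, and Atp6v0d2, a subunit of the lysosomal proton pump, had 3.28 to 7.02. Their log2 fold changes were 0.65 and 0.42, with adjusted p-values of 0.494 and 0.374.

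The 2 tested monocyte-like genes had fold changes of opposite sign, and neither passed the test. Ly6c2, which encodes the surface protein Ly6C, had 6.41, 6.30 and 5.68 normalized CPM in the controls and 5.57, 5.83, 5.97 and 10.3 in Adipoq-F2-KO. Only library 4 was above the controls, and the log2 fold change was 0.17 (95% interval -0.34 to 0.68). Ly6c1, a near-identical copy that endothelial cells express, had 79.6 to 137 CPM, so reads of Ly6c2 are uncertain. Plac8 had 1.05 to 2.65 CPM with log2 fold change -0.09 and adjusted p = 0.938. Chil3, which encodes the chitinase-like protein Ym1, had 0 to 0.415 CPM and was not tested.

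Of the 5 activation genes none passed, and their median log2 fold change was 0.53. The co-stimulatory genes Cd86 and Cd80 had the largest fold changes of all members at low levels. Cd86 had 1.71, 2.52 and 1.05 normalized CPM in the controls and 3.24, 2.49, 3.54 and 7.46 in Adipoq-F2-KO, a log2 fold change of 1.24 ± 0.42 (SE, adjusted p = 0.164, and 0.0195 without a filter on low counts). Cd80 had 0.961, 0.806 and 0.469 against 1.25, 1.28, 1.44 and 2.65, without overlap (1.14, SE 0.47, adjusted p = 0.235). In both genes Adipoq-F2-KO library 4 was the highest. Siglec1 encodes sialoadhesin, which resident macrophages carry, so its place in the activation list and its medians is a choice made here. It had 19.04 to 24.3 against 16.3 to 24.4, with a log2 fold change of -0.07 (95% interval -0.39 to 0.26). Lgals3, which encodes galectin-3, had 136 to 154 against 139 to 173 (0.11, 95% interval -0.12 to 0.33). Arg1, the arginase of alternatively activated macrophages, was at 0.586 to 2.13 CPM with log2 fold change 0.53 and adjusted p = 0.597.

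Over all 38 tested members, 32 had a fold change above 0 and 6 below, with a median of 0.57 on the log2 scale. At an unadjusted p under 0.05, 19 were higher and 1 lower, against 10.5% and 7.37% of all tested genes. No overlap was seen for 12 members, each with Adipoq-F2-KO higher, and for 0 members with it lower, where all genes gave 8.86% and 8.72%.

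**Figure D2:**
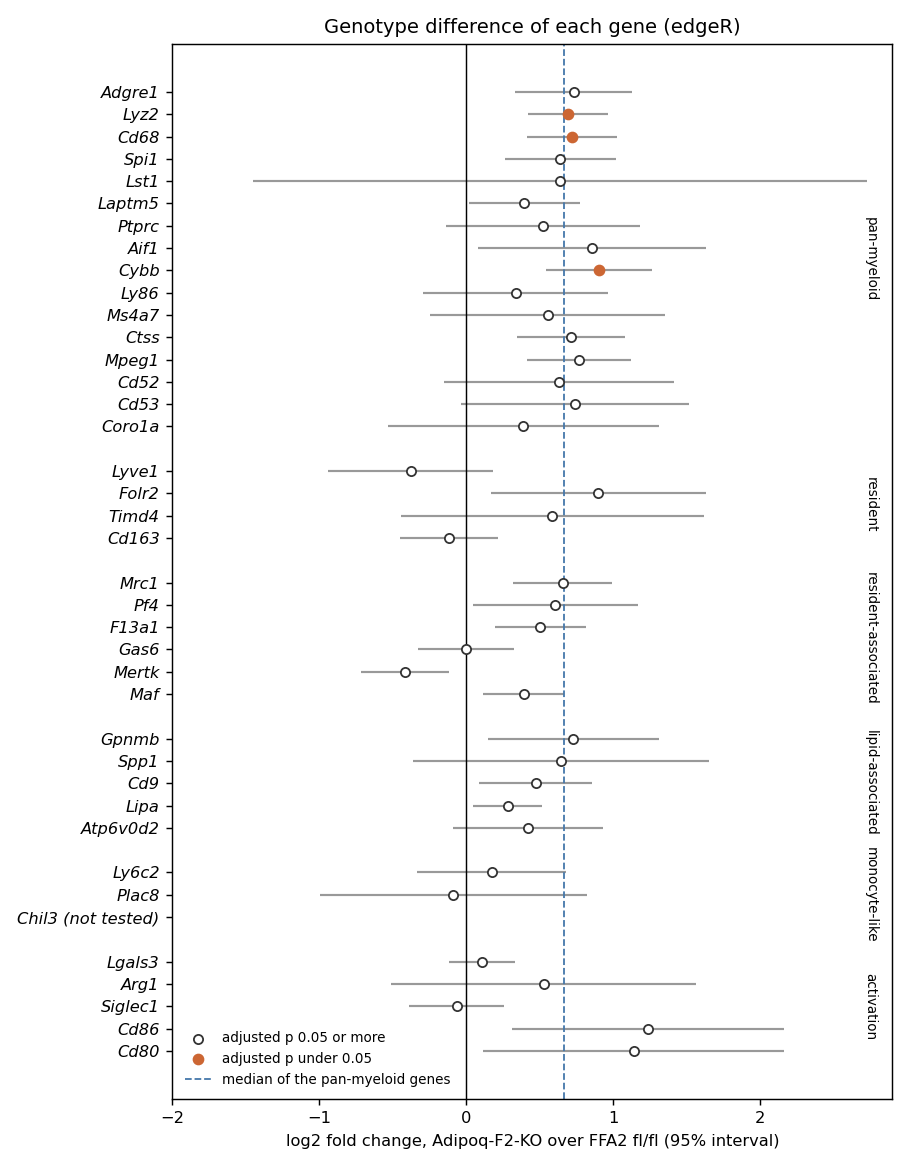
Log2 fold change of each member, Adipoq-F2-KO over FFA2 fl/fl, with its 95% interval from edgeR, grouped by state; filled points passed an adjusted p under 0.05 and the dashed line is the pan-myeloid median of 0.67. Lyz2, Cd68 and Cybb are filled, and the points of Lyve1, Cd163, Gas6, Mertk, Plac8 and Siglec1 lie at or below 0.

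To ask whether any state differed beyond the pan-myeloid genes, each library was also scaled to the summed counts of its 16 pan-myeloid genes, which set the scale and have no test of their own here. These sums were 8446, 12938 and 7867 counts in the controls and 14986, 13499, 15349 and 13152 in Adipoq-F2-KO. P-values of the main fit on this scale use a spread pooled over genes of like abundance, and not that of each gene. On this scale 0 of the 22 other tested members were called higher in edgeR, 0 also at an unadjusted p under 0.05, and 6 were called lower. The 6 were Lyve1, Cd163, Gas6, Mertk, Lgals3 and Siglec1. When each library was scaled to the geometric mean of the pan-myeloid genes instead, 4 were called lower, and Gas6 (adjusted p = 0.0519) and Lgals3 (0.0978) were not. With the replicate block 7 were called lower, Ly6c2 being the added gene (adjusted p = 0.0210). The scale lowers all genes, with a median log2 fold change of -0.70 and 53.3% of all tested genes called lower, so a gene that is flat per total RNA lies near -0.70 here. The count of 6 is a share no larger than that background, and what can be read is where each gene lies between 0, the level of the pan-myeloid genes, and -0.70, that of all genes.

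Spp1, Mrc1, Timd4, Gpnmb, Pf4 and Arg1 lay nearest to the pan-myeloid level, with log2 fold changes relative to it of -0.14 to 0.11. Cd86 (0.58, SE 0.37), Cd80 (0.43, SE 0.57) and Folr2 lay furthest above it, and none of these 3 passed the test. Per 1000 pan-myeloid counts, Mrc1 had 104, 89.97 and 153 counts in the controls and 136, 110, 88.5 and 116 in Adipoq-F2-KO, with overlapping groups (log2 fold change -0.04, SE 0.22). Gpnmb had 114, 127 and 83.1 against 155, 145, 98.5 and 70.3, a wider spread in Adipoq-F2-KO (0.11, SE 0.22). Folr2 had 5.68, 7.03 and 5.85 against 8.54, 9.33, 7.43 and 4.64 (0.27, SE 0.40).

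Lyve1, Cd163, Siglec1, Mertk, Gas6 and the monocyte-like Plac8 lay at or below the level of all genes. Plac8 was at -0.83 (SE 0.45, edgeR adjusted p = 0.111). Lyve1 had 27.0, 21.8 and 51.9 counts per 1000 in the controls and 20.0, 10.7, 16.3 and 15.5 in Adipoq-F2-KO, without overlap (log2 fold change -1.10, SE 0.26, adjusted p = 0.000257). Cd163 had 133, 76.4 and 164 against 83.0, 57.1, 66.6 and 69.5, with control library 2 among the knockouts (-0.85, SE 0.22, adjusted p = 0.000671). Siglec1 had 84.4, 69.7 and 105 against 58.2, 39.7, 50.8 and 54.7, without overlap (-0.76, SE 0.22, adjusted p = 0.00225). Mertk was lowest at -1.15 (SE 0.21, adjusted p = 7.8e-06), Gas6 was at -0.71 and Lgals3 at -0.59. Mertk, the lipid-associated Lipa and the pan-myeloid Laptm5, a gene that helps to set this scale, did not overlap on it either, each with Adipoq-F2-KO lower. That was not particular to the members. Most adipocyte markers, such as Adipoq and Plin1, also had every Adipoq-F2-KO library lower on this scale, whereas Lep and Pparg overlapped. The share of all genes without overlap on this scale is not given here. The medians by state were -0.47 for resident, -0.26 for resident-associated, -0.22 for lipid-associated, -0.69 for monocyte-like and -0.14 for activation genes. Without FFA2 fl/fl library 3 only Mertk was called lower, and without FFA2 fl/fl library 2 the number was 10.

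**Figure D3:**
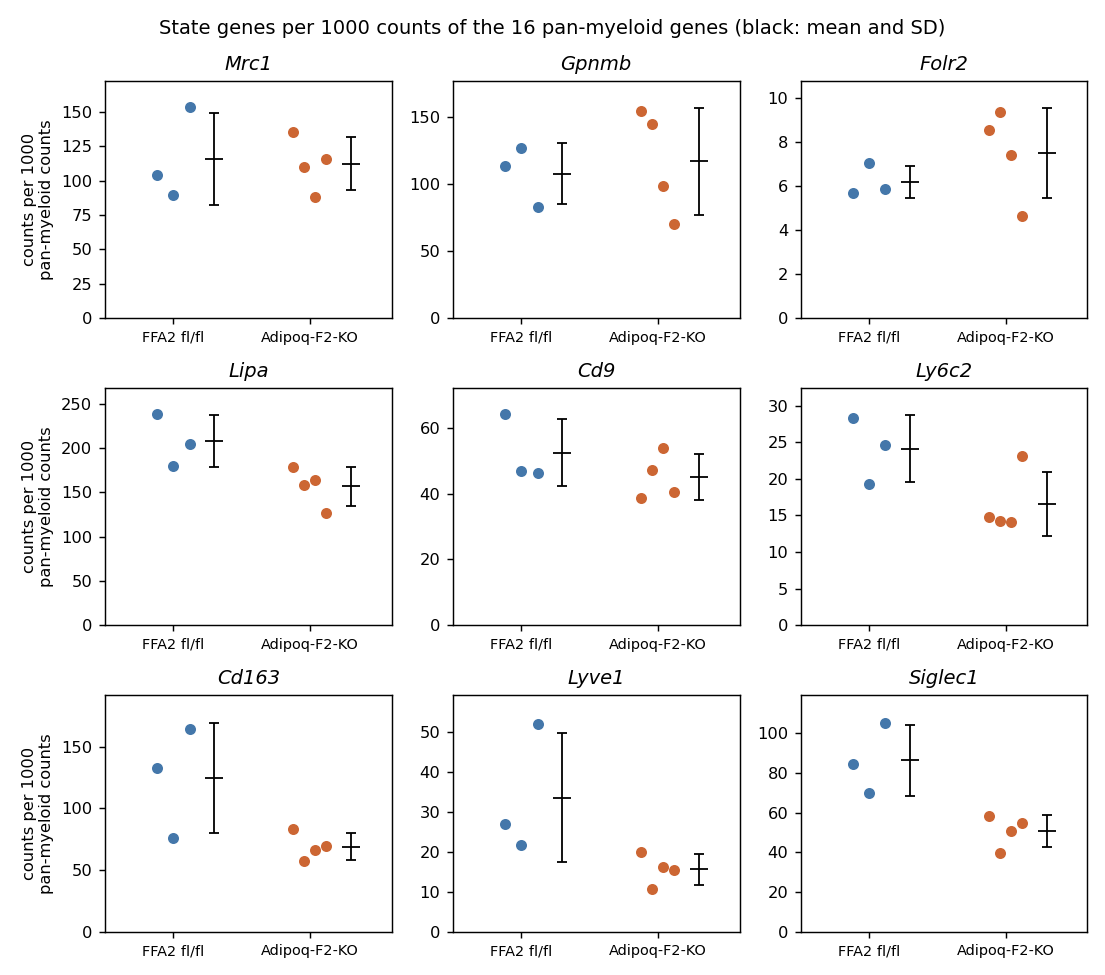
Counts of 9 state genes per 1000 counts of the 16 pan-myeloid genes, 1 point per library, with FFA2 fl/fl in blue, Adipoq-F2-KO in orange and the mean and SD of each group in black. Mrc1, Gpnmb, Folr2, Cd9, Ly6c2 and Cd163 overlap between the genotypes, whereas Lyve1, Siglec1 and Lipa have all 4 orange points below every blue point. This scale lowers most genes, with a median log2 fold change of -0.70 over all tested genes.

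Of 67 further macrophage genes in 5 lists, 62 were tested, 49 had a fold change above 0 and 13 below, and the median was 0.45 on the log2 scale. Tnf, Clec4e and Runx1 rose. Tnf, which encodes the cytokine TNF, had 12.6, 16.8 and 13.7 normalized CPM in the controls and 41.4, 30.8, 44.1 and 63.8 in Adipoq-F2-KO, without overlap (log2 fold change 1.65, SE 0.22, adjusted p = 0.0192). Clec4e, the gene of the pattern receptor Mincle, had 1.17, 0.756 and 1.23 against 4.31, 2.43, 4.65 and 7.05 (2.13, SE 0.38, adjusted p = 0.0382), a call that limma voom did not make (adjusted p = 0.0650). Both were also called higher relative to the pan-myeloid sum, Tnf by 0.96 (adjusted p = 0.000263) and Clec4e by 1.38 (adjusted p = 0.00156), where 0.757% of all genes were. Runx1, a transcription factor of blood cells, had 10.36, 12.0 and 11.1 against 18.3, 18.5, 25.5 and 27.8 (1.01, SE 0.17, adjusted p = 0.0332), and 0.31 relative to the pan-myeloid sum (adjusted p = 0.258).

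The 5 lists differed in their medians, which were 0.87 for 8 further activation genes (2 called higher), 0.59 for 10 monocyte genes (0 called), 0.55 for 12 regulators and receptors (1 called), 0.31 for 15 resident genes (0 called) and 0.22 for 17 lipid-associated genes (0 called). Csf1r, the receptor for the macrophage growth factor CSF1, had 39.9, 47.4 and 55.8 normalized CPM in the controls and 71.6, 58.8, 66.3 and 68.3 in Adipoq-F2-KO, without overlap (0.47, adjusted p = 0.0857; a gene singled out after its values were seen). Stab1 and C1qb, the scavenger receptor stabilin-1 and a complement subunit, had the highest mean CPM of the resident list, not corrected for length, and had log2 fold changes of 0.49 and 0.31. Vcan, the matrix proteoglycan versican, and Ace, angiotensin-converting enzyme, led the monocyte list by mean CPM at 1.04 and 0.51, and Nos2, inducible nitric oxide synthase, and Cd38, an ectoenzyme that degrades NAD, had 0.42 each among the activation genes. Apoe and Ctsb, which adipocytes also express, led the lipid-associated list at -0.39 and -0.01, and Cebpa and Nr1h3, regulators that adipocytes share, had -0.31 and -0.36. For all genes of these 5 lists, Vcan and Ace among them, which cells the reads came from cannot be told from bulk RNA. With 1 library left out, the number of these genes called ranged from 0 without FFA2 fl/fl library 1 or 3 to 4 without Adipoq-F2-KO library 1, and it was 1 without FFA2 fl/fl library 2 or Adipoq-F2-KO library 3 and 2 without Adipoq-F2-KO library 2.

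The summed levels of markers of other cells are given beside these results, and their part in them was not tested. Of 10 adipocyte markers 9 had fold changes below 0 (median -0.30, 5 at an unadjusted p under 0.05), with a summed level of 43206 to 48263 CPM in the controls and 33083.5 to 43168 in Adipoq-F2-KO, lowest in library 4. The 8 vascular endothelial markers all had fold changes above 0 (median 0.47, 6 at an unadjusted p under 0.05), with sums of 941 to 1229 and 1293 to 2049, highest in Adipoq-F2-KO library 4. Neutrophil markers summed to 8.06 to 10.3 against 12.1 to 14.9 CPM, with 3 of 10 tested and Ly6g at 0 in all 7 libraries. That sum was mostly Mmp9 (log2 fold change 0.79), with Csf3r at 0.68 and S100a8 at -0.18. Platelet markers summed to 1.64 to 3.02 against 3.32 to 4.69, mast cell markers to 12.2 to 14.8 against 16.04 to 30.8 and erythroid markers to 97.6 to 224 against 209 to 372. Of 6 platelet markers 3 were tested, and 0 of these separated the genotypes without overlap. The mast cell sum was mostly Kit (log2 fold change 0.74), with Cpa3 at 0.55, Mcpt4 at -0.38 and Tpsb2 at -1.03. Dendritic cell markers summed to 11.5 to 25.8 against 23.5 to 26.7, T cell markers to 3.44 to 12.0 against 4.69 to 7.11 and B cell markers to 24.8 to 78.5 against 23.2 to 84.7. Fibroblast progenitor markers gave 476 to 534 against 523 to 835, lymphatic endothelial markers 25.4 to 31.4 against 25.7 to 41.1 and mesothelial markers 9.87 to 25.9 against 7.52 to 11.0. Genes induced by tissue dissociation summed to 11122 to 13844 against 11266 to 12541 CPM. Germ cell transcripts, which cells of the neighbouring testis and epididymis hold, summed to 0 to 0.605 against 1.70 to 110.02 CPM, highest in Adipoq-F2-KO library 2. In edgeR 0 of these markers were called.

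**Figure D4:**
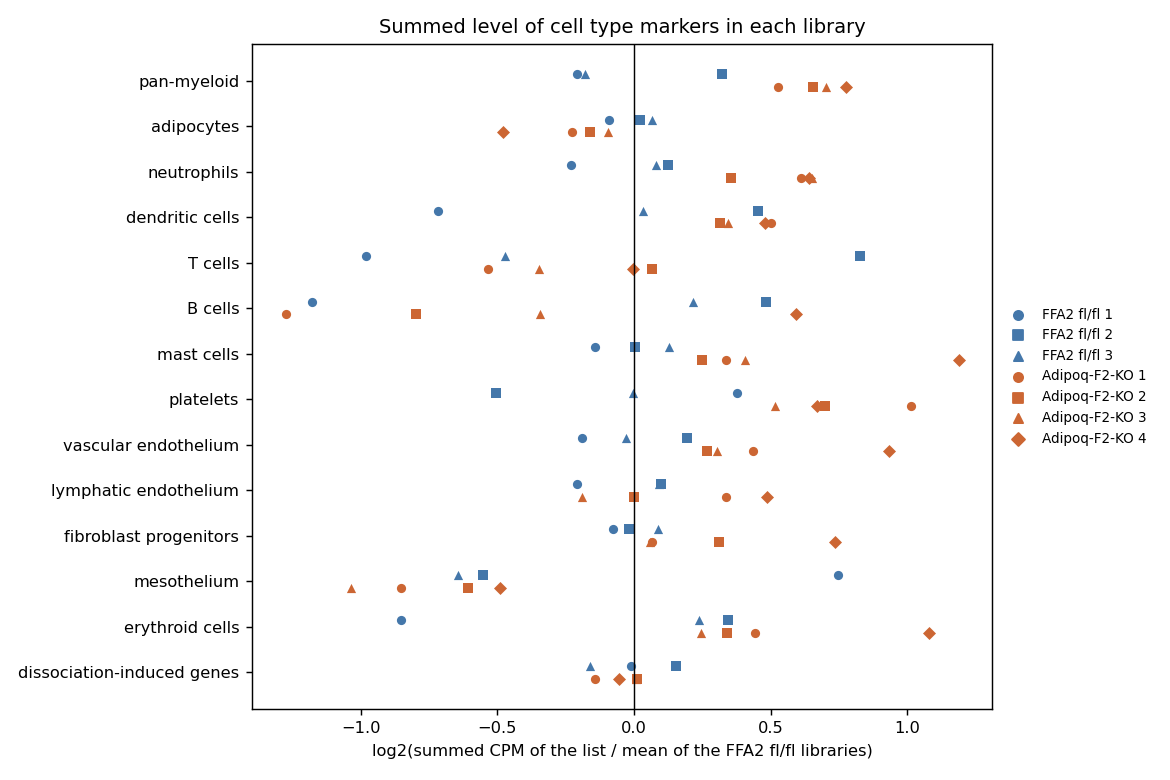
Summed normalized CPM of each list of cell type markers in each library, as log2 of the ratio to the mean of the 3 FFA2 fl/fl libraries (blue) with the 4 Adipoq-F2-KO libraries in orange; germ cell markers, at 0 in 1 library, are not drawn. The pan-myeloid, neutrophil, mast cell, platelet and vascular endothelial sums of all 4 Adipoq-F2-KO libraries lie above every control, and the adipocyte sums of all 4 lie below every control. Mmp9 and Kit make up most of the neutrophil and mast cell sums, and S100a8, Mcpt4 and Tpsb2 had fold changes below 0. The platelet sum is low, at 1.64 to 4.69 CPM, and 0 of its 3 tested genes separated the genotypes.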

How the data were processed

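Polyadenylated RNA of mature adipocytes was sequenced as read pairs. According to the submitters' processing notes, the authors used Trimmomatic for trimming, STAR for alignment and featureCounts for counting. The deposited values are whole-number counts per gene and library, without normalization. Between 85.5% and 88.8% of the low counts (1 to 49) were even in each library, as when both mates are counted, so a limit of 3 fragments is 6 counts. The detection limits cover counting error only, whereas the 95% intervals of fold changes are from edgeR and include the spread between libraries. The options for strand and shared reads are not given in the sources used here. The labels name GRCm38, but only 4389 of 37038 compared genes overlap their GRCm38 position, so gene coordinates are those of the deposited table. Promoters are from the RefSeq table for GRCm38.p6. Symbols were matched for 52029 of 57010 identifiers.

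Counts were filtered with filterByExpr, normalized with TMM (factors 0.968 to 1.02) and tested for the genotype alone with the two-sided quasi-likelihood test of edgeR 4.0.16 (glmQLFit, glmQLFTest; R 4.3.3), with Benjamini-Hochberg adjustment over 17039 genes. Normalized CPM are CPM on the TMM-scaled library size. A second fit scaled each library to the summed counts of the 16 pan-myeloid genes. It had infinite prior degrees of freedom, so all genes of like abundance shared 1 dispersion. It was planned for the other members only and was also read for Tnf, Clec4e and Runx1. DESeq2 1.42.0, limma 3.58.1, another low-count filter, other scalings, a replicate block and leaving out each library were alternatives. The scripts were tested on simulated counts. All 7 libraries were kept, since those of 1 genotype differed beyond sampling noise, with a chi-square of 39.7 to 163 for each degree of freedom.

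The members and all gene lists were chosen with earlier results of these data known. All members are named. Other lists (further macrophage genes in 5 lists, and markers of adipocytes, neutrophils, dendritic, T, B, mast, platelet, endothelial, lymphatic, fibroblast, mesothelial, erythroid and germ cells and dissociation genes) are named by called genes and the 2 most abundant per macrophage list. The tested neutrophil and mast cell markers were named after their values were seen.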

Additional observations from a re-analysis of the deposited data

Results flagged for a closer look

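In 53 sets of values, those of the 39 members and of the marker sums among them, the highest or lowest of the 4 Adipoq-F2-KO libraries was tested for its gap to the nearest other library, relative to the whole range. For independent sets, chance sets about 1 in 20 apart, and 9 were set apart here, 5 of them by Adipoq-F2-KO library 4. The sets come from the same 4 libraries and are not independent, so 9 cannot be read against that rate. In that library Adgre1 had 25.98 normalized CPM (next highest 17.4), Ms4a7 4.14 (2.06), Ly6c2 10.3 (5.97) and Cd80 2.65 (1.44), and mast cell markers summed to 30.8 (17.9). The same library had the lowest adipocyte sum and the highest vascular endothelial sum. Adipoq-F2-KO library 2 had the highest Aif1 at 3.52 (2.36), the lowest neutrophil sum at 12.1 (next lowest 14.4) and the highest germ cell sum at 110.02 (10.04). Coro1a was highest in Adipoq-F2-KO library 3 at 11.1 (7.55). Without Adipoq-F2-KO library 4, Lyz2 and Cybb stayed called and Cd68 did not. Over the fits that leave out 1 library, Adgre1 lay between 0.54 and 0.83 on the log2 scale, and Ly6c2 between -0.082 and 0.26.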

How the results depend on the processing

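Of 63 results for single genes, fitted 797 times under the alternatives, 701 fits kept the direction and the side of the threshold and 32 changed sign, in 13 genes, and none of the results that changed sign was called. Members called higher numbered 3, against 11 with no filter on low counts, 9 with DESeq2, 5 with the replicate block and 0 to 3 with 1 library left out, and 1 member (Mertk) was called lower with no filter. Further macrophage genes called higher numbered 3, against 21 with no filter, 16 with DESeq2, 5 with the block and 0 to 4 with 1 library left out, and Nr1h3 (1 gene) was called lower with no filter and with DESeq2. Of the genes relative to the pan-myeloid sum, 6 were called lower, against 4 with the geometric mean, 7 with the block, 8 with a sum without genes that lymphocytes also express (Lipa and Ly6c2 added) and 1 to 10 with 1 library left out. The call of Clec4e was lost with limma voom. The sources do not say that the replicate numbers mark a shared litter or day, and same-numbered libraries did not deviate together (r of 0.03, -0.02 and -0.02), so the block is only an alternative. It moved the resident median from 0.23 to 0.033. With 1 library left out this median lay between 0.05 and 0.38, the pan-myeloid median between 0.59 and 0.87, the resident-associated between 0.35 and 0.59, the lipid-associated between 0.34 and 0.64, the monocyte-like between -0.25 and 0.22 and the activation median between 0.22 and 0.68. On the relative scale the ranges were -0.61 to -0.32 (resident), -0.44 to -0.041 (resident-associated), -0.30 to -0.05 (lipid-associated), -0.92 to -0.38 (monocyte-like) and -0.45 to 0.12 (activation).

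Sign changes were these. Under the replicate block Lst1 had -0.52, Gas6 0.036 and Ly6c2 -0.081, and Arg1 had 0.033 relative to the pan-myeloid sum. With limma voom Lst1 had -0.57. With DESeq2 and with its size factors Gas6 had 0.0011 and 0.0018. Relative to the geometric mean of the pan-myeloid genes Mrc1 had 0.020, and relative to a sum without genes that lymphocytes also express, an alternative chosen after seeing the data, Spp1 had -0.038. With 1 library left out the ranges that crossed 0 were -0.25 to 0.065 for Cd163, -0.11 to 0.16 for Gas6, -0.082 to 0.26 for Ly6c2, -0.41 to 0.25 for Plac8 and -0.16 to 0.044 for Siglec1. Relative to the pan-myeloid sum they were -0.45 to 0.12 for Arg1, -0.44 to 0.030 for F13a1, -0.048 to 0.30 for Gpnmb, -0.20 to 0.21 for Mrc1, -0.33 to 0.16 for Pf4, -0.11 to 0.18 for Spp1 and -0.36 to 0.13 for Timd4. The cause was not tested. At this depth Chil3 lay near the limit of detection, and 3 against 4 libraries limit all calls.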

Other observations

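The 4 tested genes outside the members whose log2 CPM followed the mean log2 CPM of the 16 pan-myeloid genes most closely over the 7 libraries were Il2rg (Pearson r 0.996), Cd300ld (0.996), Serpinf2 (0.992) and Ltb4r1 (0.991). The libraries share their depth and scaling, and these are the highest correlations among the 17039 tested genes once the members are left out. Il2rg, which encodes the common chain of interleukin receptors, had 6.62, 12.8 and 7.26 normalized CPM in the controls and 13.7, 12.2, 15.7 and 17.9 in Adipoq-F2-KO (log2 fold change 0.74, standard error 0.23, edgeR adjusted p = 0.134). Serpinf2 and Ltb4r1 were both below 1.1 CPM in every library.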
